A study of Mus musculus with 8 samples.

Results

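The nuclear genes of the mitochondrial respiratory chain were examined in sensory neurons sorted from the dorsal root ganglia (DRG) of mice, which hold the cell bodies of the nerves that report touch, pain and muscle state to the spinal cord. Members were chosen by symbol alone, as all genes whose symbols begin with Nduf and a subunit letter and number, Sdha to Sdhd, Uqcr, Cox4 to Cox8 or Atp5, together with Cyc1 and Cycs. This rule gave 87 of the 22609 gene symbols counted: 35 of complex I, 4 of complex II, 9 of complex III, 20 of complex IV, 15 of complex V, the electron carrier cytochrome c (Cycs), and 3 genes that fit the symbol pattern without being subunits (Cox4nb, Atp5s and Atp5sl). Ndufa4 and Ndufa4l2 were placed in complex IV, where the Ndufa4 protein is known to sit. Cox7a2l, listed as a factor of supercomplexes (complexes joined to one another), was counted with complex IV by its symbol.

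The study asked how sensory neurons of the sexes differ, and here neurons projecting to the skin of the hindpaw and the muscle of the thigh were compared between 4 female and 4 male libraries. The mice were young adult C57BL/6J animals without injury or drug, and the females were taken in the estrous phase. All animals of both groups carried the same tracer, the fluorescent lectin conjugate WGA-Alexa Fluor 488, given into both hindpaws and both thighs days before lumbar DRG were taken, so the libraries mix skin and muscle afferents, and no library was made from a tracer-free animal. RNA of the sorted cells was made into libraries with the SMART-seq2 protocol, in which oligo-dT primes the cDNA and PCR amplifies it.

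The respiratory chain sits in the inner mitochondrial membrane. Complexes I and II pass electrons from NADH and succinate to ubiquinone, complex III passes them on to cytochrome c and complex IV to oxygen, and complex V (ATP synthase) uses the resulting proton gradient to make ATP. Complexes I, III, IV and V join subunits of nuclear and of mitochondrial DNA, while complex II is nuclear alone. Sensory neurons, with long axons and constant ion pumping, are known to depend on this supply.

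Many of these genes have processed copies, DNA copies of the spliced mRNA inserted elsewhere in the genome, and a read that fits a gene and its copy equally well was not counted for either. Each 50-base window of a coding sequence, the length of the reads, was therefore looked up in the genome build mm9. For the genes below, the sequence is given 5′ to 3′ as 60 coding bases centred on a splice junction, because an unspliced match elsewhere marks a copy of the mRNA. The capitals mark the last base of the one exon and the first base of the next.

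Atp5g2: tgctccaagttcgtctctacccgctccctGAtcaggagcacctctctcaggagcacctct

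Atp5l: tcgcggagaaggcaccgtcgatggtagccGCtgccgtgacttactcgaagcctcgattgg

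Cox7c: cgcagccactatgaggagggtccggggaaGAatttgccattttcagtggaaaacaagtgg

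Cycs: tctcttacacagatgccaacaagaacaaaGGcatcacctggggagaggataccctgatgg

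Ndufb4: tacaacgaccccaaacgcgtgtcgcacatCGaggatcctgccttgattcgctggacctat

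Cox5b: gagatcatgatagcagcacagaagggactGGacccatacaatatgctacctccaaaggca

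Each of these 60 bases occurred without a gap and without a mismatch at a second place in mm9. The Atp5g2 stretch lay at chr17:5816572-5816631 on the minus strand, in the annotated pseudogene Gm10231. The Atp5l stretch lay at chr5:24087599-24087658 on the minus strand, in the pseudogene Gm10221. The Cox7c stretch lay at chr11:75413352-75413411 on the minus strand, in the pseudogene Gm12338 within the span of Pitpna. The Cycs stretch lay at chr19:24950382-24950441 on the plus strand, in Gm10053, which is annotated as protein-coding. The Ndufb4 stretch lay at chr15:73640117-73640176 on the minus strand, in the pseudogene Gm3244 within the span of Gm628. The Cox5b stretch lay at chr13:21593081-21593140 on the minus strand, in Gm11273, annotated as protein-coding. The genes themselves are at chr15:102493299-102501478 (Atp5g2), chr9:44721333-44728825 (Atp5l), chr13:86184421-86186509 (Cox7c), chr6:50512562-50516537 (Cycs), chr16:37647256-37654539 (Ndufb4) and chr1:36748332-36750230 (Cox5b), the last on the plus strand and the others on the minus strand.

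In all, 38 of the 87 genes had copies elsewhere, at 104 places, of which 51 overlapped annotated pseudogenes. Complex V held 42 of these places and complex II none. Atp5l alone had 14 and Cycs 11. Every coding window of Atp5g2, Atp5l, Cox7c, Ndufb4 and Cycs had an identical match elsewhere, and so had 99.7% of those of Atp5g1, 73.2% of Uqcrb, 72.8% of Ndufs5 and 70.7% of Cox5b. Among genes that passed the filter on low counts, more than 50% of windows were shared in 14.1% of the respiratory chain genes and in 3.17% of all genes, for which every 50th window was looked up.

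Counted levels were low where copies were many. Levels are given per length as RPKM, reads per kilobase of annotated exon and 1e6 gene reads. Outside 8 tissue-restricted paralogues described with complex IV, 39 subunit genes shared no coding window and had a median of 229 counts per 1e6 gene reads (CPM) and 153 RPKM. The 9 genes with more than 70% of windows shared had a median of 10.5 CPM and 3.38 RPKM. Across 76 genes Spearman's rho between RPKM and the share of windows with a copy was -0.51, given as a description, since the genes share libraries and differ in length and base composition. For these genes a low level is a count of the reads that could be placed, and the level of the mRNA itself was not measured. A scale chosen after seeing the data changed both the length and the positions, with the reads divided first by the coding transcript alone and then by its positions without an identical copy. Per kilobase, Cox5b was at 160 RPKM, 160 on the whole coding transcript and 468 on its uncopied positions. The same values were 56.5, 92.6 and 265 for Uqcrb, 56.0, 120 and 321 for Atp5h, and 2.85, 5.97 and 23.0 for Cox7c.

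**Figure D1:**
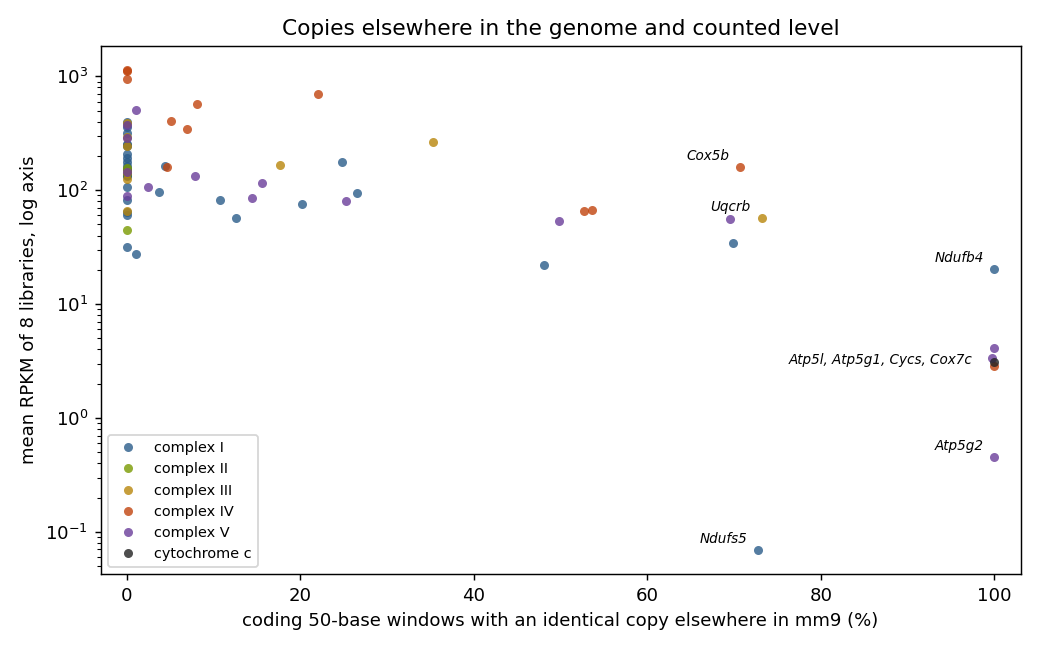
Share of coding 50-base windows with an identical match elsewhere in mm9 (horizontal axis, %) against the mean RPKM of 8 libraries (vertical axis, log scale). Each point is 1 of 76 subunit genes, coloured by complex. The 9 genes with more than 70% of windows shared are named, and 7 of them lie at or below the level of Ndufb4.

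The libraries held 4.80 to 7.33 M gene reads (M, 1e6 reads), so that 3 reads, the floor of detection used here, stand for 0.409 to 0.625 CPM. Pan-neuronal markers were high in every library, at 20521 to 29177 summed CPM in females and 21163 to 23224 in males, for 9 of 10 markers that the counts list. Some marker sets of other cells stood apart between the sexes. The 15 markers of satellite glia and Schwann cells summed to 11795 to 15224 CPM in females and 5602 to 11389 in males. The 10 fibroblast markers summed to 105 to 158 CPM in females and 46.0 to 89.9 in males. The 12 skeletal muscle markers summed to 5.38 to 6.74 CPM in females and 3.14 to 4.37 in males, with Myh2, Tnnc2, Tnni2 and Tnnt3 at 0 reads throughout. The macrophage markers (8.52 to 27.7 CPM in females, 3.27 to 9.91 in males) and those of endothelium and blood (2.92 to 13.6 and 1.82 to 4.44) overlapped. Neuron subtype markers overlapped in sum too, at 3565 to 6197 CPM in females and 2432 to 4342 in males for myelinated neurons and at 4776 to 6211 and 5705 to 8161 for peptidergic neurons. Among the markers that passed the filter on low counts, the log2 fold change (female over male) was above 0 in 12 of 14 of the glial set (5 with an unadjusted edgeR p under 0.05), 6 of 6 of the fibroblast set (4 under 0.05), 2 of 3 of the macrophage set (2), 8 of 8 of the myelinated set (2), 1 of 6 of the peptidergic set (4) and 6 of 9 of the pan-neuronal set (0). The only tested muscle marker was above 0 and the only one of endothelium and blood was not, with 0 under 0.05 in both. Of all tested genes, 51.7% were above 0 and 7.1% had such a p. A fit with the glial score is given with the comparison, but that score moved with sex. The part of these cell types in the results was not tested. In such sorted pools, fewer cells of a type and less RNA per cell cannot be told apart. Female replicate 4 stood apart for the genes examined here, as described below. For the edgeR comparison, the ratios of the sums and the counts of genes by direction and by p are given with and without it. So is a log2 fold change where leaving it out moved the value by more than 1.5 times. The counts of intervals inside a fold limit are given with all libraries only.

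Of the 87 genes, 78 passed the filter on low counts and were tested together with all other genes that passed, 12518 in all. The filter removed Atp5g2 and Ndufs5, whose windows are largely shared, and 7 tissue-restricted paralogues of complex IV. The 87 genes together took 1.90% of all gene reads. The 78 tested genes had a median of 138 RPKM, where all tested genes had 6.63 RPKM.

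**Figure D2:**
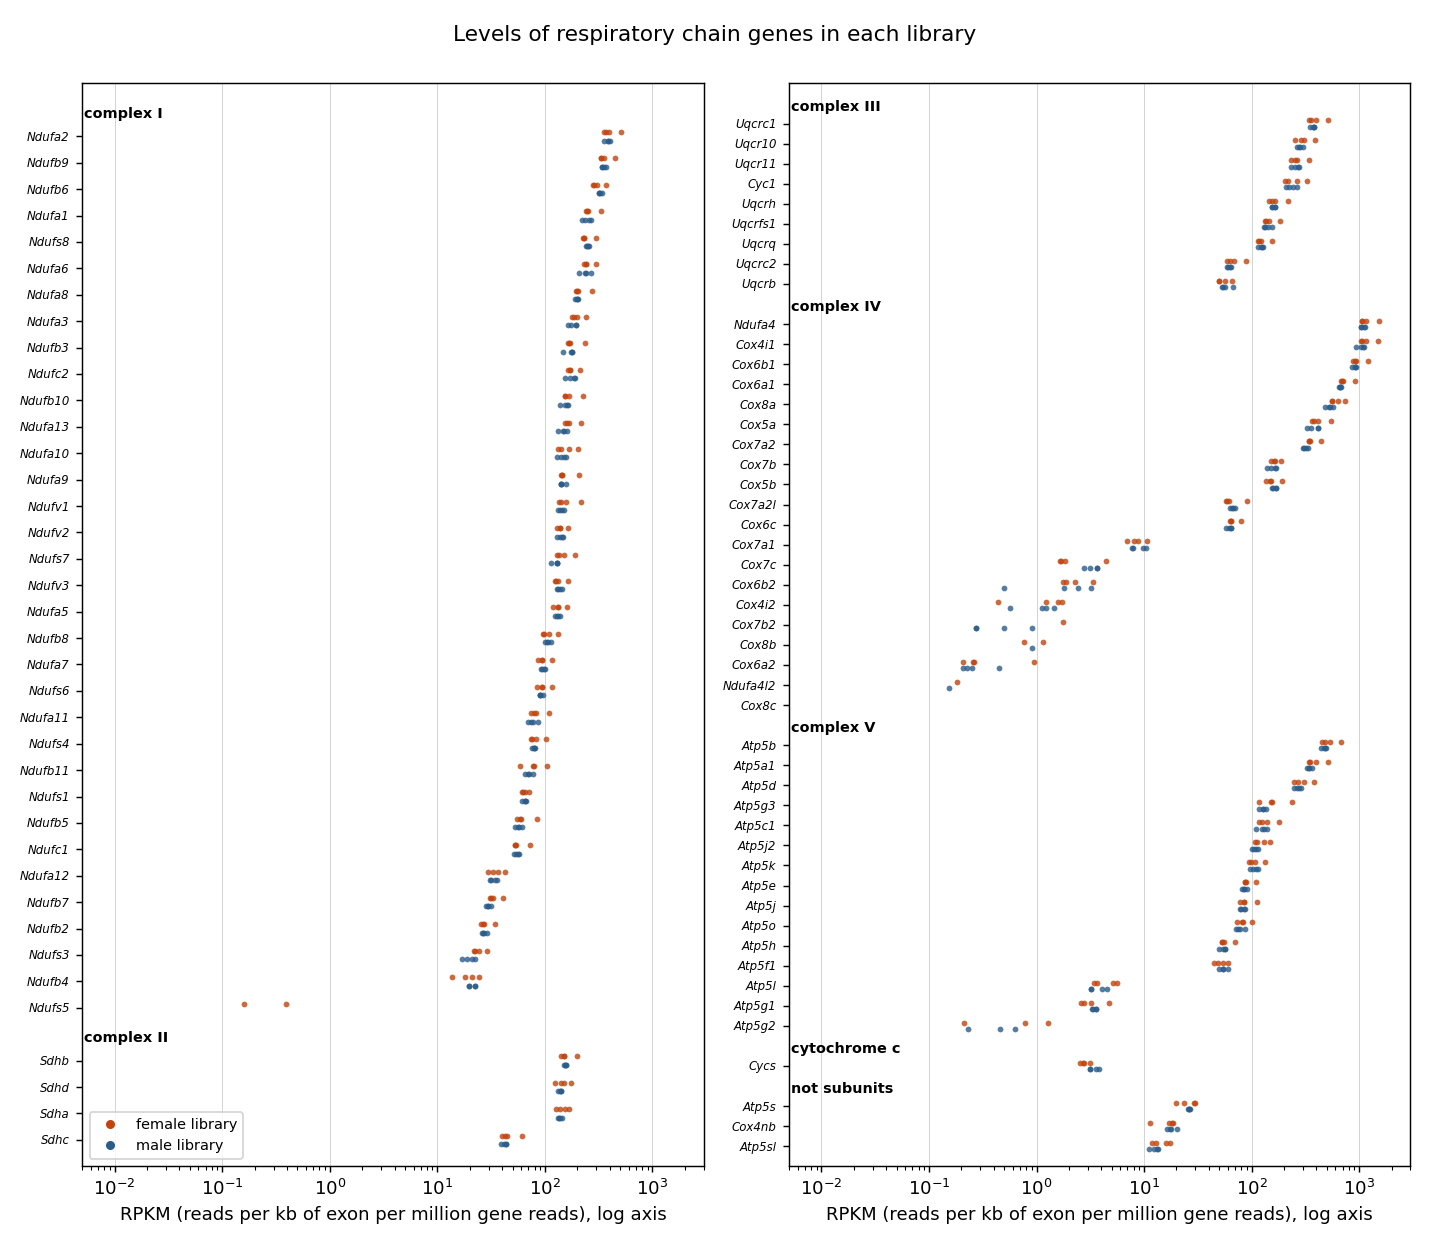
RPKM of the respiratory chain genes in each library (horizontal axis, log scale), grouped by complex and ordered by mean level. Each point is 1 library, values of 0 are not drawn, and female and male points overlap in all but 3 of the tested genes, Ndufs7, Cox7a2 and Cycs.

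Complex I, the NADH dehydrogenase, has a core of catalytic subunits and a shell of accessory ones. The summed level of its 35 nuclear genes averaged 6393 ± 1011 CPM over the female and 5940 ± 226 CPM over the male libraries (mean ± SD, n = 4 each). The female libraries stood at 5804, 5799, 6071 and 7898 CPM and the male libraries at 5647, 6094, 6139 and 5881 CPM. Replicate 4 of the females was the only library above the highest male, and the other females lay within the male range.

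Ndufa2, an accessory subunit (chr18:36902020-36904202, minus strand), had the highest level of complex I per length of annotated exon at 396 RPKM, and Ndufb4 the lowest of the tested ones at 20.2 RPKM. On the coding transcript alone Ndufb8 (498) and Ndufa3 (468), accessory subunits too, were above Ndufa2 (396). Ndufs5, whose windows are largely shared, had 1 and 2 reads in 2 female libraries and 0 in the other 6. Levels of the core genes were 138 RPKM for Ndufs7, 151 RPKM for Ndufv1 and 64.8 RPKM for Ndufs1.

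Ndufs7, a core subunit that carries the iron-sulfur cluster next to ubiquinone (chr10:79711866-79719539, plus strand), was at 222, 230, 260 and 329 CPM in females and at 197, 221, 221 and 221 CPM in males. Its sexes did not overlap, although the lowest female and the highest male differed by little, and with the TMM scaling that the edgeR test uses they did overlap. The log2 fold change, female over male here and throughout, came to 0.26 ± 0.13 (SE; edgeR p of 0.0786, adjusted p of 0.720). Without female replicate 4 it was 0.13.

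Ndufs3, another core subunit of the same arm (chr2:90734791-90744984, minus strand), was at 47.8, 48.9, 53.5 and 62.8 CPM in females and at 46.0, 41.1, 48.9 and 36.5 CPM in males. The lower females and the upper males overlapped. It had the smallest p of all respiratory chain genes, at a log2 fold change of 0.29 ± 0.14 (SE; edgeR p of 0.0661, adjusted p of 0.712). Some 48.0% of its coding windows have an identical copy.

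Ndufs1 and Ndufv1, core genes of the NADH-binding arm, were nearer to equality. Ndufs1 (chr1:63190170-63223396, minus strand), the large iron-sulfur subunit, averaged 245 ± 15.3 CPM over the female and 244 ± 10.4 CPM over the male libraries (mean ± SD, n = 4 each). Ndufv1 (chr19:4007497-4012806, minus strand), which binds NADH, was at 340, 356, 393 and 542 CPM in females and at 365, 376, 333 and 350 CPM in males, with a log2 fold change of 0.18 ± 0.15 (SE). Female replicate 4 was the highest library for Ndufv1, and without it the value was 0.015.

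Ndufa8, an accessory subunit (chr2:35891846-35904926, minus strand) that the study's text names in another neuron preparation, was at 169, 170, 173 and 236 CPM in females and at 173, 172, 173 and 165 CPM in males. All libraries but female replicate 4 were thus nearly equal. The log2 fold change came to 0.12 ± 0.13 (SE) with all libraries and -0.02 without female replicate 4.

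Complex II, succinate dehydrogenase, also works in the citric acid cycle. The summed level of its 4 genes averaged 1267 ± 175 CPM over the female and 1193 ± 34.2 CPM over the male libraries (mean ± SD, n = 4 each). Per length of annotated exon, Sdhb was at 157, Sdha at 142, Sdhd at 142 and Sdhc at 44.4 RPKM. On the coding transcript alone the same genes were at 308, 190, 142 and 45.5, so that Sdhc was the lowest on both scales.

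Sdha (chr13:74459702-74487728, minus strand), the flavoprotein that oxidises succinate, was at 533, 488, 601 and 647 CPM in females and at 517, 561, 532 and 525 CPM in males. Sdhb (chr4:140517118-140535108, plus strand), the iron-sulfur subunit, was at 318, 334, 338 and 445 CPM in females and at 338, 350, 351 and 343 CPM in males. Female replicate 4 lay above all males, and the other females lay at or below their lower edge.

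Female replicate 4 was the highest library for both membrane anchors too. Sdhc (chr1:173057296-173080734, minus strand) was at 145, 129, 138 and 198 CPM in females and at 127, 141, 142 and 136 CPM in males. Sdhd (chr9:50404443-50411954, minus strand) was at 193, 159, 180 and 223 CPM in females and at 169, 179, 181 and 183 CPM in males. The 4 log2 fold changes ran from 0.04 to 0.14, with 95% intervals inside 2-fold in both directions, and from -0.079 (Sdhb) to 0.0047 (Sdha) without female replicate 4.

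Complex III, the cytochrome bc1 complex, passes electrons from ubiquinol to cytochrome c. The summed level of its 9 genes averaged 2197 ± 399 CPM over the female and 2042 ± 102 CPM over the male libraries (mean ± SD, n = 4 each). Uqcrc1, a core subunit (chr9:108838661-108851685, plus strand), had the highest level per length of annotated exon at 387 RPKM and Uqcrb the lowest at 56.5 RPKM. On the coding transcript alone both ends of the order changed, with Uqcr10 (397) above Uqcrc1 (387) and Uqcrc2 (89.5) below Uqcrb (92.6).

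Uqcrc1 was at 585, 559, 663 and 853 CPM in females and at 582, 630, 618 and 631 CPM in males. Cyc1 (chr15:76173953-76176364, plus strand), the catalytic cytochrome c1, was at 263, 242, 315 and 393 CPM in females and at 248, 313, 291 and 263 CPM in males. Uqcrfs1 (chr13:30632177-30637231, minus strand), the Rieske iron-sulfur protein, was at 184, 181, 199 and 252 CPM in females and at 176, 212, 193 and 180 CPM in males. The sexes overlapped in all of these, and the 9 log2 fold changes ran from -0.08 (Uqcrb) to 0.16 (Uqcrc2). Without female replicate 4 they ran from -0.17 (Uqcrb) to 0.021 (Uqcrc2).

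Cytochrome c itself, Cycs, was the single one of the 78 tested respiratory chain genes whose level in every male exceeded that in every female. The same held for 2.52% of all tested genes, so that 1 of 78 is no more than that share. Cycs was at 9.21, 9.37, 8.54 and 10.6 CPM in females and at 13.1, 10.7, 12.2 and 10.6 CPM in males. The highest female (10.61) and the lowest male (10.65) all but met. The estimate was -0.32 ± 0.16 on the log2 scale (SE; edgeR p of 0.0734, adjusted p of 0.716). Without female replicate 4 it was -0.38 (p of 0.0384, adjusted p of 0.406 in edgeR). In that fit 5.72% of all genes had an unadjusted p under 0.05 and were higher in males. The estimate rested on 41 to 96 reads per library. All coding windows of Cycs have copies, and the printed stretch is only a part of them.

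Complex IV, cytochrome c oxidase, hands the electrons to oxygen. Its nuclear subunits surround a catalytic core made from mitochondrial DNA, and several come in paralogues for particular tissues. The summed level of its 20 genes averaged 3949 ± 615 CPM over the female and 3533 ± 176 CPM over the male libraries (mean ± SD, n = 4 each). Ndufa4 had the highest level per length of all the genes at 1137 RPKM, followed by Cox4i1 at 1113 RPKM and Cox6b1 at 946 RPKM, and Cox7c had the lowest of the tested ones at 2.85 RPKM.

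Cox4i1 (chr8:123192190-123198109, plus strand), the largest nuclear subunit, was at 718, 702, 786 and 1022 CPM in females and at 635, 746, 732 and 706 CPM in males. Cox5a (chr9:57369039-57380231, plus strand) was at 261, 250, 286 and 379 CPM in females and at 228, 285, 286 and 245 CPM in males. Cox7a2 (chr9:79603048-79607660, minus strand) was at 258, 262, 258 and 330 CPM in females and at 229, 254, 241 and 227 CPM in males. Cox7a2 was the only gene of complex IV whose sexes did not overlap, at a log2 fold change of 0.20 ± 0.11 (SE; edgeR p of 0.0961, adjusted p of 0.735) and of 0.11 without female replicate 4.

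Cox8a (chr19:7289648-7292106, minus strand) was at 303, 305, 346 and 406 CPM in females and at 264, 292, 312 and 287 CPM in males, at a log2 fold change of 0.22 ± 0.12 (SE; edgeR p of 0.0926) and of 0.13 without female replicate 4. Cox5b was at 85.5, 84.0, 76.2 and 109 CPM in females and at 87.3, 90.0, 95.6 and 95.5 CPM in males. Female replicate 4 lay above all males and the other females below them. The log2 fold change came to -0.07 ± 0.13 (SE; edgeR p of 0.582, adjusted p of 0.899) with all libraries and to -0.18 ± 0.07 (SE; edgeR p of 0.0335, adjusted p of 0.396) without that library.

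Cox7c was at 1.92, 2.08, 5.00 and 1.85 CPM in females and at 4.09, 4.16, 3.14 and 3.55 CPM in males, from 11 to 30 reads. Female replicate 3 was above all males and the other females below them. The log2 fold change had a 95% interval of -1.28 to 0.26 around -0.51 ± 0.35 (SE). Without female replicate 3 it became -0.96 ± 0.27 (SE; edgeR p of 0.00639, adjusted p of 0.867).

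The paralogues of complex IV fell into a sharp order, the same in both sexes. Shares were taken per exon length within each family. Cox4i1 made up 99.86% to 99.96% of Cox4i1 and Cox4i2, the form known from lung, and Cox6a1 99.86% to 99.97% of Cox6a1 and Cox6a2, the form known from heart and skeletal muscle. Cox6b1 made up 99.65% to 99.94% beside the testis form Cox6b2, and Cox7b 98.92% to 100% beside Cox7b2. Cox8a made up 99.82% to 100% beside Cox8b and Cox8c, and Ndufa4 at least 99.98% beside Ndufa4l2, which is known to be induced in hypoxia.

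The minor forms had few reads, although Cox6b2 and Cox4i2 were above the floor of 3 reads in most libraries. Cox4i2 had 2 to 8 reads per library, Cox6b2 2 to 12, Cox7b2 0 to 7, Cox6a2 1 to 3, Cox8b 0 to 2 and Ndufa4l2 0 or 1. Cox8c had 0 reads in all 8 libraries, which allows at most 0.409 to 0.625 CPM. Cox7a1, the muscle form, had the most, at 12 to 24 reads and 1.97% to 3.16% of the sum with Cox7a2. Cox7a1 averaged 3.12 ± 0.573 CPM over the female and 3.26 ± 0.490 CPM over the male libraries (mean ± SD, n = 4 each). The sex difference in Cox7a1 was -0.07 ± 0.25 (log2 fold change and SE), and -0.18 without female replicate 4. The part of muscle RNA, whose markers are given above, in its level was not tested.

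Complex V makes ATP. The summed level of its 15 genes averaged 5900 ± 1102 CPM over the female and 5211 ± 255 CPM over the male libraries (mean ± SD, n = 4 each). Atp5b, the catalytic beta subunit (chr10:127520329-127527447, plus strand), had the most reads of all the genes and the highest level per length of the complex at 503 RPKM. Atp5g1 had the lowest of the tested ones at 3.38 RPKM.

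Atp5b was at 2031, 1906, 2250 and 2868 CPM in females and at 1867, 2098, 2036 and 2003 CPM in males. Atp5a1, the alpha subunit (chr18:78012468-78021608, plus strand), was at 1101, 1078, 1247 and 1600 CPM in females and at 1025, 1137, 1063 and 1065 CPM in males. Both sexes overlapped in each, with log2 fold changes of 0.16 ± 0.13 and 0.21 ± 0.13 (SE). Without female replicate 4 these came to 0.030 for Atp5b and 0.077 for Atp5a1.

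The c-ring, the rotor that protons turn, is encoded by Atp5g1, Atp5g2 and Atp5g3, whose mature proteins are known to be identical. Atp5g3 (chr2:73746504-73749383, minus strand), which has no copied coding window, was at 255, 336, 333 and 518 CPM in females and at 256, 294, 276 and 276 CPM in males. Female replicate 1 fell below all males and the other females above them. Of the 78 tested genes it had the highest log2 fold change, 0.37 ± 0.18 (SE; edgeR p of 0.0683, adjusted p of 0.712). The value was 0.15 without female replicate 4 and 0.51 ± 0.16 (SE) without female replicate 1 (edgeR p of 0.0101, adjusted p of 0.329).

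Atp5g1 (chr11:95930166-95936984, minus strand) averaged 16.3 ± 4.61 CPM over the female and 17.0 ± 0.83 CPM over the male libraries (mean ± SD, n = 4 each), and Atp5g2 had 0 to 4 reads per library. Atp5g3 therefore held 96.7% to 98.3% of the counted c-ring reads per exon length. Because nearly all coding windows of Atp5g1 and Atp5g2 have identical copies, this is a share of placed reads only. Atp5l, a small subunit of the membrane part, had 9 to 19 reads per library, and all of its windows have copies.

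**Figure D3:**
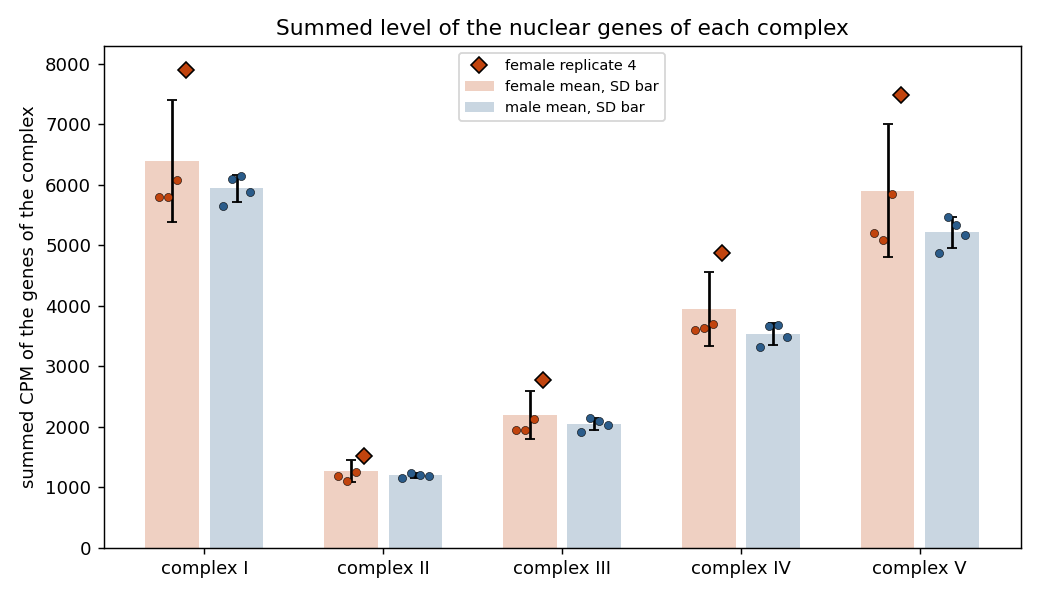
Summed CPM of the nuclear genes of each complex (vertical axis). Bars are group means with SD (n = 4), points are libraries, and the diamond is female replicate 4. That diamond lies above all other libraries in each complex, and the remaining female points lie among or near the male points.

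Between the sexes no respiratory chain gene passed an adjusted p of 0.05 in edgeR, 0 of 78, where 11 of 12518 genes passed in all (0.0879%). No member had an unadjusted p under 0.05 either, against 889 of all genes (7.1%, made up of 4.62% up in females and 2.48% up in males). DESeq2 and limma-voom also gave 0 at both levels. The intervals were narrow. The median SE of the 78 log2 fold changes was 0.13, against 0.20 for all tested genes. For 77 of 78 the 95% interval lay inside 2-fold in both directions (81.4% of all genes), the exception being Cox7c, and for 72 of 78 it lay inside 1.5-fold (46.3% of all genes). The sexes did not overlap in 3 of 78 genes, Ndufs7 and Cox7a2 higher in females and Cycs higher in males, a share near the 5.52% of all genes (3% up in females, 2.52% up in males). With TMM-scaled CPM the count was 2 of 78, as Ndufs7 then overlapped.

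The estimates leaned to the females before female replicate 4 was set aside. The log2 fold change was above 0 in 64 of 78 genes (51.7% of all genes), with a median of 0.099 against 0.0088 over all genes. By complex, it was above 0 in 29 of 34 tested genes of complex I, 4 of 4 of complex II, 8 of 9 of complex III, 10 of 13 of complex IV and 12 of 14 of complex V. The ratio of the summed CPM, female over male, was 1.08, 1.06, 1.08, 1.12 and 1.13 in complexes I to V.

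Without female replicate 4 this lean was lost. The log2 fold change was then above 0 in 30 of 78 genes (51.7% of all genes in that fit), with a median of -0.015. By complex, it was above 0 in 10 of 34 tested genes of complex I, 1 of 4 of II, 2 of 9 of III, 8 of 13 of IV and 8 of 14 of V. The ratios of the sums were 0.992, 0.993, 0.981, 1.03 and 1.03. No respiratory chain gene passed an adjusted p of 0.05 in that edgeR fit, where 13 of the 12518 genes of the main comparison did. The unadjusted p was under 0.05 in 3 genes, Cox5b, Cycs and Ndufb6, all higher in males, where 5.72% of all genes were so in that direction. Ndufb6, an accessory subunit of complex I, stood at -0.18 ± 0.06 on the log2 scale in this fit (SE; edgeR p of 0.0166, adjusted p of 0.358) and at -0.08 ± 0.11 with all libraries (SE; edgeR p of 0.462, adjusted p of 0.867).

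**Figure D4:**
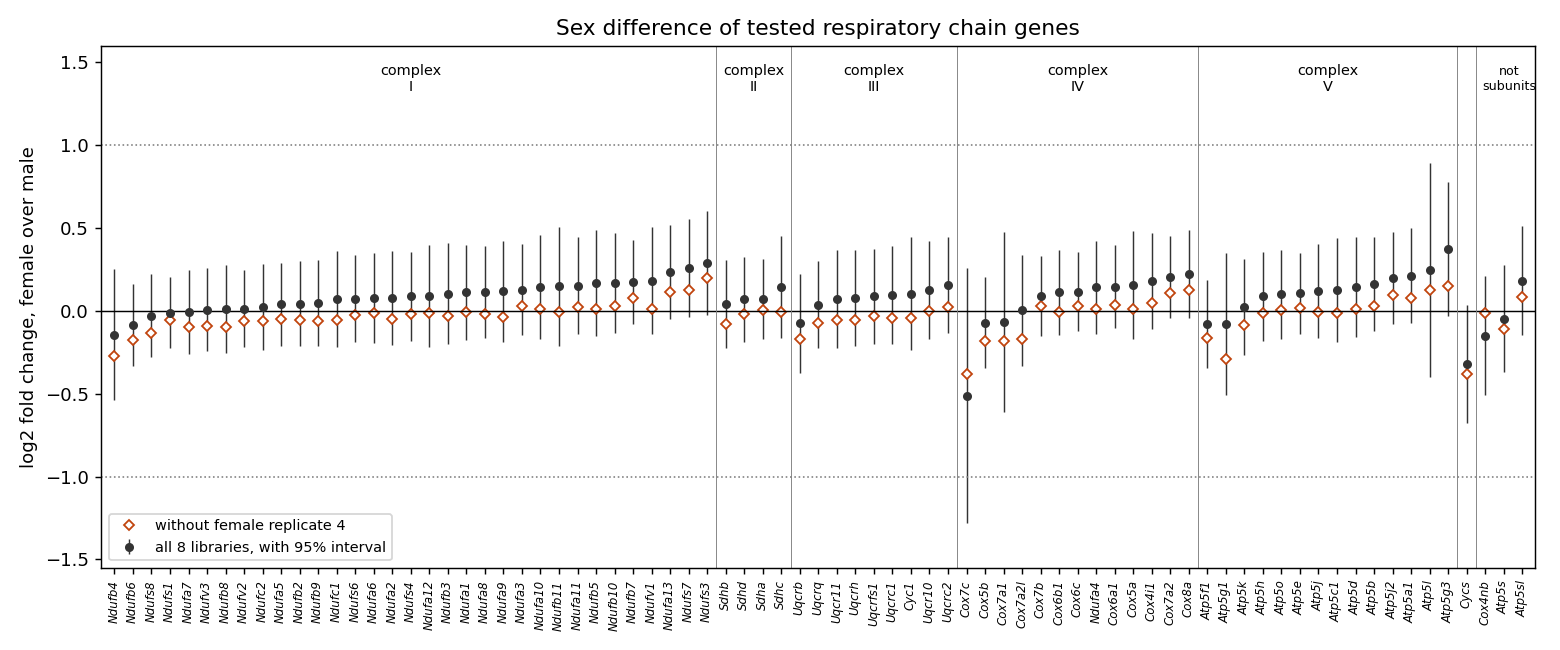
Log2 fold change, female over male, of the tested genes (vertical axis), ordered within each complex (Cycs stands alone between complex V and the genes that are not subunits). Filled points with 95% intervals are from all 8 libraries, open diamonds are without female replicate 4, and dotted lines mark 2-fold. All intervals cross 0 and only that of Cox7c passes a dotted line.

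Female replicate 4 was the highest of the 8 libraries for 73 of the 78 genes, and for 31.4% of all tested genes. It was above the other 3 females in 75 of 78 genes (38.1% of all genes), including every tested gene of complexes I, II, III and V and 12 of 13 of complex IV. Its median log2 difference from the mean of the other females was 0.40 for the 78 genes and 0.0014 for all genes. By complex this median was 0.40, 0.38, 0.46, 0.40 and 0.43 from I to V, so that the complexes moved together. The 87 genes summed to 24696 CPM in this library, to 17721 to 19171 in the other females and to 17064 to 18785 in males.

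Exon length moved with this difference. Over 12374 tested genes with a length, Spearman's rho between exon length and the deviation of female replicate 4 was -0.53, and in the other libraries it ran from 0.01 to 0.23, given as a description across genes, which are not independent. The respiratory chain genes had a median of 1348.5 exon bases, against 3832.5 for all tested genes. With counts corrected for exon length in each library, the log2 fold change between the sexes was above 0 in 57 of 78 genes with a median of 0.052. With the glial score of each library as covariate these values were 44 of 78 and 0.0091. That score was 7.28 to 7.52 in females and 6.37 to 7.29 in males. With 8 libraries, sex and the score can hardly be told apart in such a fit.

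**Figure D5:**
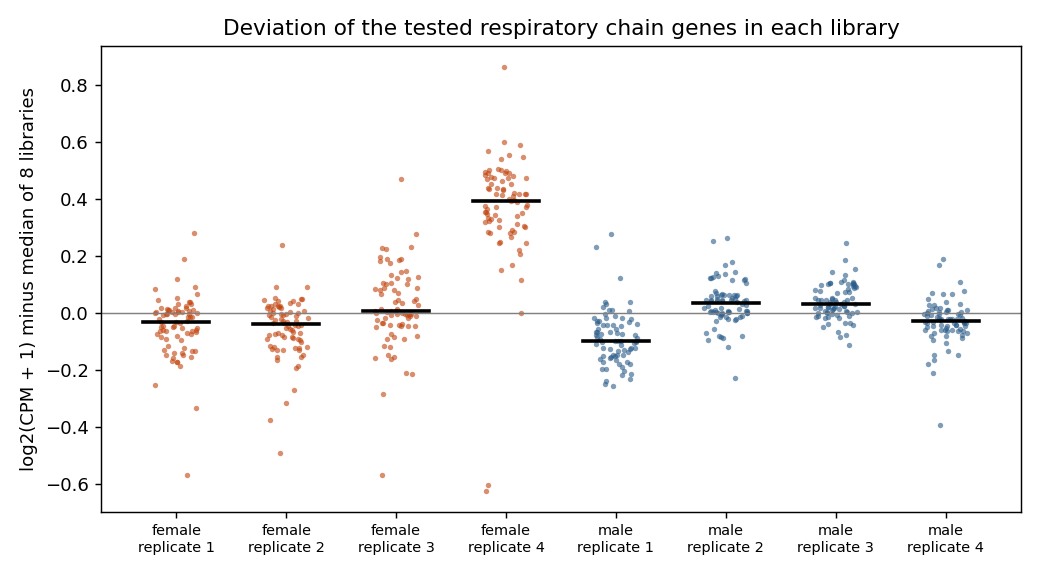
Deviation of each of the 78 tested genes in each library, as log2(CPM + 1) minus the median of the 8 libraries (vertical axis). Each point is 1 gene and the bar is the median, which was 0.39 in female replicate 4 and between -0.10 and 0.03 in the other libraries.

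Outside female replicate 4 the chain varied little. The coefficient of variation of the summed CPM among males was 3.80% for complex I, 2.87% for complex II, 4.98% for complex III, 4.98% for complex IV and 4.89% for complex V. Among the remaining 3 females it was 2.64%, 6.24%, 5.64%, 1.31% and 7.58%. The 3 genes that match the pattern but are not subunits differed among themselves in female replicate 4. Cox4nb was at 56.1 CPM there and at 84.3 to 92.2 CPM in the other females, the lowest of all libraries. Atp5sl was at 50.4 CPM there and at 34.5 to 46.2 CPM in the other females, the highest of all libraries, and Atp5s at 43.0 CPM lay within the other females (29.5 to 44.1 CPM).

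Genes that build or control the chain showed no sex difference past the test either. Of 36 assembly factors listed, 29 were in the counts and all were tested. None of the 29 had an unadjusted p under 0.05 (7.1% of all genes), 15 of them had a log2 fold change above 0 and 14 below, and the median was 0.01. Without female replicate 4 the split was 4 above and 25 below 0, with a median of -0.087, where 51.7% of all genes in that fit were above 0. The unadjusted p was then under 0.05 in 2 of them, Cox19 (p of 0.00964, adjusted p of 0.324) and Tmem70 (p of 0.0468, adjusted p of 0.430), both lower in females in that edgeR fit, where 11.4% of all genes had such a p (5.72% lower in females). Surf1, needed to assemble complex IV, averaged 84.6 ± 15.5 CPM over the female and 74.7 ± 6.32 CPM over the male libraries (mean ± SD, n = 4 each). Cox17, a copper chaperone of complex IV, averaged 87.9 ± 13.6 CPM over the female and 86.1 ± 4.43 CPM over the male libraries (mean ± SD, n = 4 each).

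None of 12 transcriptional regulators of mitochondrial genes had an unadjusted p under 0.05 in the main edgeR fit, where 7.1% of all genes did. Nearest was Ppargc1a, the coactivator of mitochondrial biogenesis, on average 21.3 ± 2.08 CPM over the female and 13.7 ± 5.71 CPM over the male libraries (mean ± SD, n = 4 each). The sexes overlapped, at a log2 fold change of 0.63 ± 0.29 (SE; edgeR p of 0.0542, adjusted p of 0.690), and without female replicate 4 at 0.69 (edgeR p of 0.0448, adjusted p of 0.423). Its unadjusted p was under 0.05 in several other settings too, which are named with the dependence on processing. Nrf1 averaged 15.2 ± 3.61 CPM over the female and 18.6 ± 1.62 CPM over the male libraries (mean ± SD, n = 4 each). Tfam, which packs and transcribes mitochondrial DNA, averaged 16.6 ± 3.29 CPM over the female and 17.0 ± 2.93 CPM over the male libraries (mean ± SD, n = 4 each).

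Atpif1, the inhibitor of ATP synthase, averaged 480 ± 53.8 CPM over the female and 479 ± 21.9 CPM over the male libraries (mean ± SD, n = 4 each). Of 3 subunits whose symbols fall outside the pattern, Ndufab1, Usmg5 and 2010107E04Rik, none had an unadjusted p under 0.05. The 13 subunits encoded by mitochondrial DNA were not among the symbols counted, so the balance of nuclear and mitochondrial subunits was not analysed here.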

How the data were processed

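Per the labels and the study's methods, the authors made single reads of 50 bases, aligned them to the build mm9 (TopHat2) and took read counts of genes from HTSeq; tool versions, annotation release and strand option are not given in the sources used here. The deposited values are raw counts in 8 libraries. Reads without a single best alignment (8.57 to 13.3 M lines per library, M being 1e6), without a feature or ambiguous are listed apart and were left out of library sizes. No molecular identifiers were used, so floors cover counting error only. The design text speaks of 4 males and 4 females, which were taken as the replicates, and no batch or date is given.

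CPM were computed per library from gene reads, and RPKM with union exon lengths of GENCODE M1 (NCBIM37, that is mm9), which matched 21627 symbols. Sexes were compared in edgeR 4.0.16 by its quasi-likelihood test (TMM, default filter, Benjamini-Hochberg over 12518 genes), in R 4.3.3, after a test on simulated data. No 2 libraries of a sex agreed within sampling noise (chi-square per degree of freedom at least 2.82). Windows of the longest coding transcript were matched to the genome without gaps, and a place counted as a copy when at least 100 windows matched it with at most 2 mismatches. Other tests and settings tried were limma-voom (limma 3.58.1), DESeq2 1.42.0, other scalings and filters, a glial covariate, a length correction, the replicate number as a block and leaving out each library.

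The members and lists were chosen with earlier results of these data known. Named were core subunits, the highest and lowest tested member of each complex per length, members with an unadjusted p under 0.05, paralogue families, Ndufa8, Cycs and members that failed the filter; Ndufs3, Ndufa3, Ndufb8, Uqcr10, Uqcrc2, Atp5h, Ndufb6, Surf1, Cox17, Cox19, Tmem70, Nrf1 and Tfam were added after their values were seen. 1 member is counted with the others but not reported here by itself, and is not drawn in the plots that name genes. Python 3.11.15, pandas 2.3.3 and matplotlib 3.10.9 were used. Other preparations of the study were not analysed here.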

Additional observations from a re-analysis of the deposited data

Results flagged for a closer look

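Dixon's test for a library far from the others of its group was run on 74 groups of 4 libraries, of which chance flags about 1 in 20 (3.7), and 10 stood out. The groups share libraries, and sums of complexes hold genes that were also taken alone. They are therefore not independent, and the count of 10 was not tested against 3.7. Female replicate 4 accounted for 7 of the 10, and the causes were not tested. In that library the summed level of complex I was 7898 CPM (other females 5799 to 6071) and that of complex IV 4870 CPM (3597 to 3692). Its CPM was 445 for Sdhb (318 to 338), 236 for Ndufa8 (169 to 173), 638 for Cox6a1 (473 to 492), 616 for Cox6b1 (446 to 475) and 330 for Cox7a2 (258 to 262).

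A pair of male values stood out within very close groups. Ndufs7 was at 197 CPM in male replicate 1, with the other males at 221 CPM, and Ndufa8 was at 165 CPM in male replicate 4, with the others at 172 to 173 CPM. Cox7c was at 5.00 CPM in female replicate 3, against 1.85 to 2.08 CPM in the other females, on few reads and with copies of all its coding windows.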

How the results depend on the processing

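No respiratory chain gene, assembly factor or regulator passed an adjusted p of 0.05 under any alternative, with each library left out in turn included. Directions depended on female replicate 4, and counts on several libraries. Over the fits that left out 1 library, the count of genes with a log2 fold change above 0 ran from 30 (without female replicate 4) to 68, that of genes whose sexes do not overlap from 3 to 9 (9 without male replicate 3, 8 without female replicate 4, 6 without female replicate 1 and 5 without female replicate 3, where 9.16%, 11.8%, 12% and 8.28% of all genes did not overlap), and that of genes with an unadjusted p under 0.05 from 0 to 2 higher in females (Atp5g3 and Ndufs7, without female replicate 1, where 5.61% of all genes were so) and from 0 to 3 higher in males (Cox7c without female replicate 3, against 2.09% of all genes; Cox5b, Cycs and Ndufb6 without female replicate 4, against 5.72%). For assembly factors and regulators that count ran from 0 to 3 (3 without female replicate 4, where 11.4% of all genes had such a p). It was 1, Ppargc1a, with library size alone, no filter beyond 1 read, the length correction, the replicate block, limma-voom and DESeq2. The adjusted p of Ppargc1a in these edgeR, limma-voom and DESeq2 fits ran from 0.493 to 0.766. The shares of all genes with such an unadjusted p are not given for these fits, and the share was 7.1% in the main fit. With the length correction, 1 member, Cox8a, had an unadjusted p under 0.05, higher in females (edgeR p of 0.0477, adjusted p of 0.523). Changes of sign were followed for 32 of the members only. Over the same fits the log2 fold change changed sign among these for Ndufs1 (-0.054 to 0.011), Ndufa2 (-0.048 to 0.13), Ndufa8 (-0.02 to 0.16), Sdhb (-0.079 to 0.096), Sdhc (-0.0075 to 0.21), Sdhd (-0.020 to 0.13), Uqcrc1 (-0.044 to 0.16), Uqcrfs1 (-0.030 to 0.14), Cyc1 (-0.043 to 0.19), Cox6b1 (-0.0047 to 0.15), Cox7a1 (-0.18 to 0.0061) and Atp5g1 (-0.29 to 0.010). With the glial covariate it became -0.016 for Sdhb, -0.016 for Uqcrfs1, -0.032 for Cyc1, -0.018 for Cox5a, -0.055 for Cox7b and -0.046 for Ndufa2, with the length correction 0.0043 for Ndufs1, -0.026 for Sdhb and 0.0065 for Atp5g1, and with library size alone 0.0036 for Ndufs1. The causes of these changes of sign were not tested. Measured on the longest transcript, the c-ring share of Atp5g1 was 0.970% and that of Atp5g3 98.9%, and on the coding transcript, chosen after seeing the data, 0.815% and 99.1%, since the lengths alone changed.

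The replicate numbers are shared between sexes but only name libraries: same-numbered libraries correlated at 0.094, -0.11, 0.14 and 0.0047 after the group means were removed. With the number as a replicate block, 62 of 78 log2 fold changes were above 0, with a median of 0.088, and 0 members were called.

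Depth limited the genes with at most 30 reads, Cox7c, Cox7a1 and Atp5l, and copies limited those with shared windows. With 4 libraries per sex and 1 of them apart, small shifts common to all complexes could not be told from that library.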
